A study of Mus musculus with 3 samples.

Results

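C-type lectin receptors are the carbohydrate-binding and related receptors with which antigen-presenting cells take up or sense glycans, microbes and dying cells. The set described here was chosen by gene symbol and held 8 genes, Cd207, Mgl2, Clec10a, Cd209a, Ly75, Clec7a, Clec12a and Clec4a2, of the 34289 features in the deposited count tables, and all 8 were found. They were measured by droplet-based single-cell RNA sequencing of Langerhans cells (LCs), the antigen-presenting cells of the epidermis, enriched from mouse ears, with 1 library per group. All mice were male and of the Cd1 stock, and the untreated group had been given Nair, a depilatory, and nothing else. The croton oil group had the irritant applied in acetone and olive oil, the microneedle group had been punched repeatedly with a needle array, and both were sampled 48 h after the first treatment. Epidermis had been released with trypsin, dead cells had been removed, and LCs had been enriched on magnetic beads. The labels do not give the number of animals behind a library. With 1 library per group there was no replicate check and no test, so every interval below is a 95% interval for counting error within a library, exact Poisson for levels and exact Clopper-Pearson for shares.

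C-type lectins share a fold that in many of them binds sugars through a calcium ion, and those that internalise carry bound material into endosomes, where it can be loaded onto MHC molecules. Langerin, encoded by Cd207, is the classical LC lectin and forms the Birbeck granules of these cells. Mgl2 (CD301b) and Clec10a (Mgl1, CD301a) bind galactose and N-acetylgalactosamine, Cd209a is a mouse relative of the human receptor DC-SIGN, and Ly75 encodes DEC-205, an endocytic receptor of dendritic cells and of some epithelia. Clec7a encodes dectin-1, an activating receptor for fungal beta-glucan. Clec12a and Clec4a2 encode receptors with an inhibitory cytoplasmic motif, and are not primarily uptake receptors.

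The 3 libraries held 6945 to 9876 cells with 117178809 to 127666928 unique molecular identifiers (UMIs, each 1 captured transcript), and a median of 11623 UMIs per cell in the untreated, 12509 in the croton oil and 16427 in the microneedle library. Pairs of libraries shared between 13 and 32 cell barcodes. LCs were gated as cells with at least 2% of their UMIs from Cd74, H2-Aa, H2-Ab1 and H2-Eb1 (MHC class II) and at least 2 Epcam UMIs, which gave 8651 untreated, 5922 croton oil and 5295 microneedle cells. Apart from Cd207, 10 of 11 LC markers reached 20 CPM (a gene's UMIs, summed over cells and scaled to a fixed total) in the gated cells of each library, but 5 of these are the genes of the gate, which fixed their place. Of the markers that the gate did not use, the adhesion gene Cdh1 was at 383 CPM without treatment, 286 CPM after croton oil and 305 CPM after microneedling, Adgre1, which encodes F4/80, at 251, 170.2 and 202 CPM in the same order, and Mfge8 at 464, 2226 and 1201 CPM. Of 18 monocyte and macrophage markers, 4, 6 and 5 did so in the untreated, croton oil and microneedle cells, and their levels summed to 818, 2619.9 and 1449 CPM. C1qa stood at 59.3, 1481 and 485 CPM and Cd14 at 20.7, 112 and 69.0 CPM, whereas the monocyte markers Ly6c2, Plac8 and Ccr2 were each below 1 CPM in all 3 libraries. Of 10 conventional dendritic cell markers, 4 reached 20 CPM in each library, and their list summed to 280, 240 and 201 CPM. Summed keratinocyte markers were at 228, 191 and 46.7 CPM and summed T cell markers at 5.35, 85.8 and 22.6 CPM. The part of these other markers in the lectin values was not tested.

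The lectin genes lie on 4 chromosomes of the mouse genome build GRCm39. Cd207 (chr6:83648190-83654839, minus strand), Clec7a (chr6:129438554-129449742, minus), Clec12a (chr6:129319654-129342266, plus) and Clec4a2 (chr6:123083387-123120958, plus) are on chromosome 6. Mgl2 (chr11:70020954-70028376, plus) and Clec10a (chr11:70047023-70061660, plus) are neighbours on chromosome 11, Cd209a is at chr8:3793397-3798984 (minus) and Ly75 at chr2:60122441-60213682 (minus). In the GENCODE M39 annotation an exon of Ly75 overlaps the antisense long non-coding gene Gm13571, and an exon of Clec4a2 overlaps the antisense gene Gm67020. RefSeq promoters, 300 bases each with 250 before and 50 after the start site, were available for 7 of the 8 genes. The 3 shown are those of Cd207, the LC lectin, and of Mgl2 and Cd209a, the genes furthest apart between libraries, printed 5′ to 3′ on the strand of the gene, and their places in GRCm39 come from an exact match of the RefSeq table's sequence. Capitals mark matches to the motifs searched on both strands. In Cd207 (chr6:83654790-83655089, minus strand) these are an AP-1 match, TGACTCA, ending 1 base before the start site, and a PU.1 match read on the opposite strand, CTTCCTC. In Cd209a (chr8:3798935-3799234, minus strand) the capitals are an ETS-IRF composite match on the opposite strand, TTTCTCTTCC. The Mgl2 promoter (chr11:70020933-70021232, plus strand) held no match to any of the 6 motifs. Most of this window lies inside the gene as annotated in GENCODE M39, which starts at 70020954, so little sequence before that start was searched.
Cd207: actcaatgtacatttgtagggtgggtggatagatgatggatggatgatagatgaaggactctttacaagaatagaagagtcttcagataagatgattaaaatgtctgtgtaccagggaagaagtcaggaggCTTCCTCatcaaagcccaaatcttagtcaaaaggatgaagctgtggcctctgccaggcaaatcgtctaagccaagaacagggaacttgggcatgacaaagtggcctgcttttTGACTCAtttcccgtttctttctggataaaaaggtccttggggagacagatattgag
Mgl2: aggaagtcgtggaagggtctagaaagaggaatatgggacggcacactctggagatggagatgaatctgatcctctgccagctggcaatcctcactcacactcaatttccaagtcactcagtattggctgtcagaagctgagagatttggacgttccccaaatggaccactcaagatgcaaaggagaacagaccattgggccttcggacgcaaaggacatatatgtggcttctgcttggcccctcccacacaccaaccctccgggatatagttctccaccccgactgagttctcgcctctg
Cd209a: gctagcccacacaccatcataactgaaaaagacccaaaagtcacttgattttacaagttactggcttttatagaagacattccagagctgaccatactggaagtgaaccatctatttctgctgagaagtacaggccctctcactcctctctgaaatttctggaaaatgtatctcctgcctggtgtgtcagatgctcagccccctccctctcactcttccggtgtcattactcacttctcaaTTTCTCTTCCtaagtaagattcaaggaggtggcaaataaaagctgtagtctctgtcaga

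Among all 32851 promoters of the table, 7.81% held the AP-1 letters TGANTCA, 13.6% the PU.1 letters GAGGAAG, 2.72% the ETS-IRF letters (GGAA and GAAA with 2 bases between them), 6.95% the STAT6 letters (TTC and GAA with 4 bases between them), 10.8% the C/EBP letters TTGCNNAA and 16.8% the RUNX letters TGTGGT. AP-1 letters also occurred in the promoters of Clec12a and Clec4a2, ETS-IRF and STAT6 letters in that of Clec7a, C/EBP and RUNX letters in those of Ly75 and Clec12a, and PU.1 letters in that of Clec12a. A match is a description of the sequence, and the absence of one says only that these letters are not in the window.

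Mgl2 differed most between the 2 injuries. Untreated LCs held it at 53.9 CPM (52.5 to 55.3), those from croton oil skin at 338 CPM (334 to 342) and those from microneedled skin at 15.6 CPM (14.8 to 16.4). The croton oil cells were thus highest and the microneedle cells lowest, with intervals far apart. The ratio of levels was 6.28 for croton oil over untreated, and microneedle cells were 3.45-fold lower than untreated. On the log2(CPM + 5) scale, which shrinks the changes of low genes and is used for all log2 values here, the differences were 2.54 and -1.51, and croton oil exceeded microneedle by 4.06. Both comparisons with untreated cells used the same untreated library.

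Cd207, by contrast, was highest in untreated LCs, at 568 CPM (564 to 573). After microneedling it was at 466 CPM (462 to 470) and after croton oil at 327 CPM (323 to 331), log2 differences of -0.28 and -0.79 from untreated. The median LC held 6 Cd207 UMIs in the untreated, 7 in the microneedle and 2 in the croton oil library, while the median depth of the gated cells was 11527, 17342 and 12576.5 UMIs. The order untreated, microneedle, croton oil held for the level, but the median UMI count per cell put the deeper microneedle cells slightly ahead of the untreated ones.

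Cd209a was low to begin with and lower after both injuries. Its level was 23.0 CPM (22.1 to 23.9) in untreated LCs, 2.70 CPM (2.36 to 3.09) after croton oil and 4.09 CPM (3.69 to 4.51) after microneedling. That is 8.51-fold and 5.63-fold lower than untreated as a ratio of CPM, and -1.86 and -1.62 on the log2(CPM + 5) scale. Cd209d, another gene of the same cluster of receptors, was lower in both treated libraries too, at 36.7 CPM without treatment, 8.29 CPM after croton oil and 7.14 CPM after microneedling.

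Ly75 in gated LCs was at 291 CPM in both the untreated (288 to 294) and the croton oil library (288 to 295) and at 334 CPM (330 to 338) in the microneedle library, differences of 0.00 and 0.20 on the log2 scale. Its difference between croton oil and untreated cells took either sign with the gate: -0.10 without cells that carried at least 3 UMIs of Ccr7 plus Fscn1, and 0.60 once such cells from outside the gate were added. Those cells are described further on, because they had the highest Ly75 levels.

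Clec7a was at 50.5 CPM (49.1 to 51.8) in untreated LCs, 57.0 CPM (55.3 to 58.6) after croton oil and 46.6 CPM (45.3 to 48.0) after microneedling. These differences, 0.16 and -0.10 on the log2 scale, were small beside those of Mgl2 and Cd209a. Clec4a2 was at 33.1 CPM (32.0 to 34.2), 14.7 CPM (13.9 to 15.6) and 19.0 CPM (18.2 to 19.9) in the same order, -0.95 and -0.66 on the log2 scale. Clec4a2 was therefore lower after both injuries, by less than 2-fold on this scale, and its croton oil difference reached -1.12 with a pseudocount of 1 CPM in place of 5.

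Clec10a and Clec12a were near the limit of detection in LCs. Clec10a had 49, 109 and 23 UMIs over all gated untreated, croton oil and microneedle cells, or 0.455 (0.336 to 0.601), 1.34 (1.10 to 1.62) and 0.238 (0.151 to 0.357) CPM. Clec12a had 122, 12 and 31 UMIs, or 1.13 (0.940 to 1.35), 0.148 (0.0762 to 0.258) and 0.321 (0.218 to 0.455) CPM. Clec10a shared 226 of the 1449 stretches of 50 bases in the last 500 bases of its annotated transcripts with Mgl2, its neighbour, so reads from those stretches cannot be assigned to one of the genes. The last 500 bases of Mgl2 transcripts shared 36 of 706 stretches with other genes, Clec10a not among them. Those of Clec4a2 shared 101 of 1093 with Clec4a4. In croton oil LCs the level of Clec10a was 0.338 CPM in the 1644 cells without Mgl2 and 4.28 CPM in the 882 cells with at least 10 Mgl2 UMIs.

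**Figure D1:**
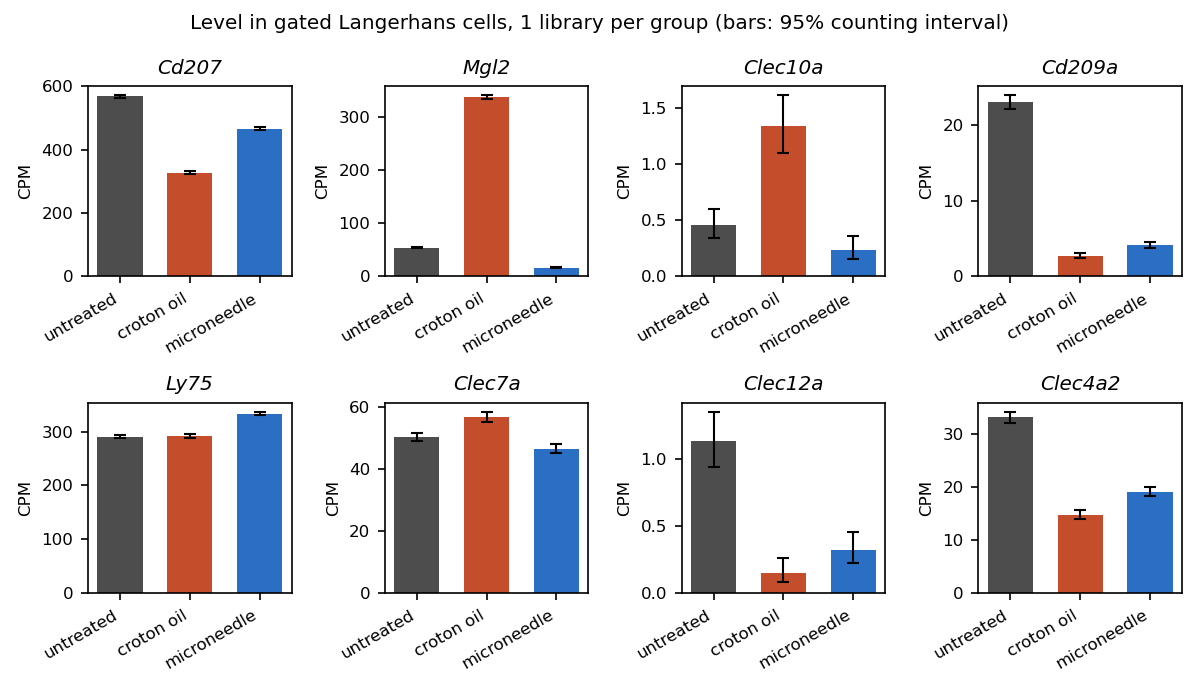
Level of each of the 8 lectin genes (CPM, linear axes from 0, each gene with its own scale) in gated LCs of the untreated, croton oil and microneedle libraries; error bars are 95% counting intervals of 1 library each. Mgl2 is highest in croton oil and lowest in microneedle cells, while Cd207, Cd209a, Clec12a and Clec4a2 are highest in untreated cells.

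Genes entered a comparison with at least 20 CPM in 1 of its libraries, a minimum that Clec10a and Clec12a never reached. Of the 6 lectin genes that passed for croton oil against untreated, 1 (Mgl2) was at least 2-fold higher, where 5.5% of all 6837 genes were, and 1 (Cd209a) at least 2-fold lower, where 5.53% were. Of the 6 that passed for microneedle against untreated, 0 were 2-fold higher, against 3.88% of 6703 genes, and 2 (Mgl2 and Cd209a) were 2-fold lower, against 1.76%. Of the 4 that passed for croton oil against microneedle, Mgl2 was 2-fold higher, against 1.63% of 6633 genes, and 0 were 2-fold lower, against 1.04%. The median log2 difference of the lectin genes that passed was -0.39 for croton oil and -0.47 for microneedle against untreated, beside -0.03 and 0.03 for all genes. A gene that passed only through its higher library had to differ, so these counts describe the set and support no more.

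Genes that were 2-fold apart from untreated cells in opposite directions in the 2 injuries were rare. Of 6954 genes with at least 20 CPM in LCs of any library, 2 did so, Mgl2 and Lgals7. Lgals7, which encodes the keratinocyte protein galectin-7, was at 41.0 CPM in untreated LCs, 105 CPM after croton oil and 17.5 CPM after microneedling, and at 6376, 11296 and 7804 CPM in the keratinocyte-like cells of the same libraries. Mgl2 in keratinocyte-like cells was at 7.58, 34.8 and 4.08 CPM, below its LC level in each library. The LC level of Lgals7 was thus a small part of that in keratinocyte-like cells, whereas Mgl2 was higher in LCs.

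Shares of cells with a UMI were compared after thinning each LC to 3000 UMIs, since depth differed. Mgl2 was then detected in 13.7% (13.01 to 14.5) of 8549 untreated, 43.9% (42.6 to 45.2) of 5890 croton oil and 4.66% (4.10 to 5.27) of 5236 microneedle LCs. Without thinning the shares were 40.5%, 72.2% and 19.2%. In keratinocyte-like cells, which should lack the gene, the thinned share was 3.31%, 6.59% and 3.57%, and the last of these had an interval of 0.435 to 12.3 that includes the microneedle LC share. Median depths before thinning were higher in the keratinocyte-like cells, at 31465, 54562 and 45557 UMIs among those kept.

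Cd207 was detected in 76.7% (75.7 to 77.5) of untreated, 45.8% (44.5 to 47.1) of croton oil and 65.8% (64.5 to 67.1) of microneedle LCs at 3000 UMIs, and in 97.3%, 76.9% and 95.2% without thinning. The corresponding thinned shares in keratinocyte-like cells were 12.4%, 3.30% and 19.6%. Cd209a was found in 6.90%, 0.815% and 1.15% of LCs, and in 0 of 121, 182 and 56 keratinocyte-like cells, which allows shares of cells with a UMI of up to 2.48%, 1.65% and 5.36% (3 cells of each total). Without thinning Cd209a was detected in 22.7%, 3.29% (2.85 to 3.78) and 6.46% (5.81 to 7.15) of LCs and in 7.75%, 0.498% (0.0126 to 2.74) and 4.35% (0.906 to 12.2) of keratinocyte-like cells. The unthinned intervals of the 2 cell classes thus did not overlap in the croton oil library and overlapped in the microneedle library. Ly75 was detected in 53.0%, 39.5% and 49.1%, Clec7a in 7.65%, 10.9% and 8.54% and Clec4a2 in 9.77%, 4.09% and 5.98% of LCs. Ly75 thus had the same summed level in untreated and croton oil LCs but was spread over fewer of the latter, and 51.6% of its croton oil UMIs lay in the tenth of cells with most of them, against 32.8% in the untreated library.

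Mgl2 and Cd207 were then examined in the same cells, at 3000 UMIs. Both genes were detected in 10.4% (9.74 to 11.0) of untreated, 21.1% (20.1 to 22.2) of croton oil and 3.44% (2.96 to 3.97) of microneedle LCs. The product of the single shares was 10.5%, 20.1% and 3.07%, so the observed share was 0.986, 1.05 and 1.12 times the product. Cells with Mgl2 alone made up 3.36%, 22.8% and 1.22%, and cells with Cd207 alone 66.3%, 24.7% and 62.4%. In croton oil LCs the 4 classes, including 31.4% with neither, were thus of similar size, whereas in the other libraries most cells showed Cd207 alone. Since a thinned cell misses many transcripts it does hold, the share with both depends on depth, and without thinning it was 39.7%, 56.4% and 18.7%.

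Within the croton oil library Mgl2 was higher in cells with more Cd207. Its level was 297 CPM (286 to 308) in thinned cells with no Cd207 UMI, 397 CPM (381 to 413) with 1 to 2, 451 CPM (419 to 485) with 3 to 5, and 679 CPM (592 to 775) in the 108 cells with 6 or more. In untreated cells the same classes gave 55.4, 52.2, 47.9 and 63.8 CPM, with overlapping intervals. In microneedle cells they gave 13.8 (10.8 to 17.3), 16.7 (13.9 to 19.9), 23.8 (18.3 to 30.5) and 15.9 (5.83 to 34.5) CPM, so the class with 3 to 5 was above that with none there too, at a far lower level. The Cd207 classes of the croton oil library also differed in Ly75, from 219 CPM with no Cd207 UMI to 429 CPM with 6 or more, and in Clec7a, from 41.3 to 253 CPM. Across the same classes Epcam went from 1066 to 1701 CPM and the share of migratory cells, which are described further on, from 0.940% to 7.41%, and their part in these orders was not tested. Library-wide, Mgl2 was highest where Cd207 was lowest, while among croton oil cells Mgl2 was higher in the classes with more Cd207. Cells of 1 library are not replicates, and the order is a description.

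**Figure D2:**
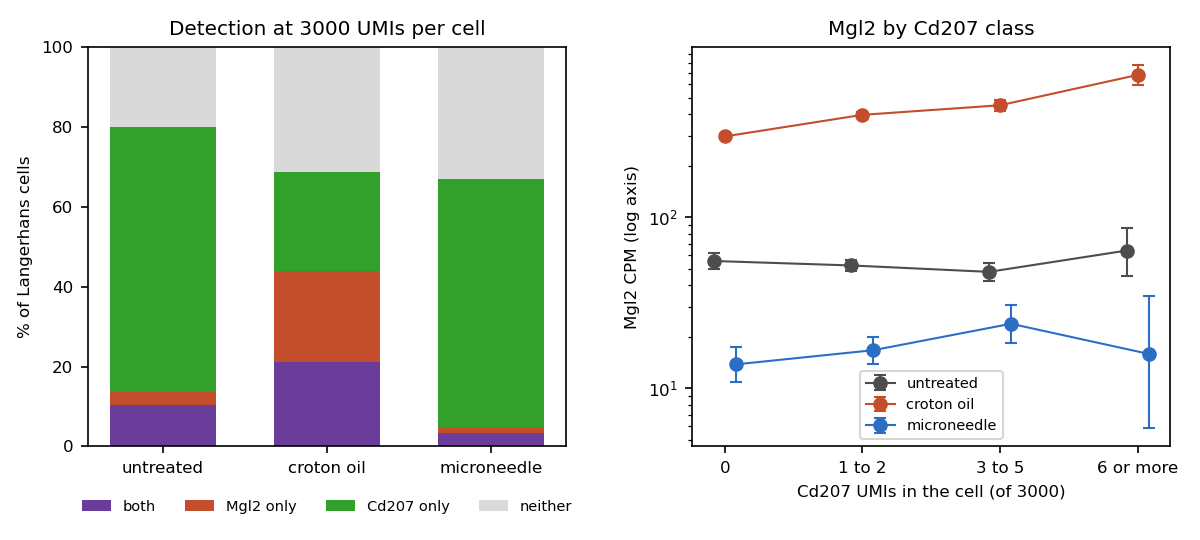
Left, share of gated LCs (% of cells thinned to 3000 UMIs) in which both genes, only Mgl2, only Cd207 or neither was detected, by library. Right, Mgl2 level (CPM, log axis) by the number of Cd207 UMIs in the thinned cell, with 95% counting intervals, showing the higher Mgl2 level of croton oil cells with more Cd207 and the flat profile of untreated cells.

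Mgl2 was unevenly spread over cells. In the croton oil library 28.8% of LCs held at least 5 Mgl2 UMIs and 1 cell held 92, against 0.774% and 0.227% of untreated and microneedle LCs with at least 5. The tenth of cells with most Mgl2 carried 49.2% of its croton oil UMIs. By Mgl2 class in croton oil LCs (none, 1 to 4, 5 to 9, and 10 or more UMIs, with median depths from 11818.5 to 14035.5 UMIs), Epcam, the adhesion molecule of LCs, was at 1334, 1193, 1042 and 805 CPM. Mrc1, which encodes the mannose receptor, went down across the same classes, with 67.5, 58.1, 46.0 and 17.3 CPM, and Clec4n, which encodes dectin-2, likewise, with 106, 69.7, 36.2 and 19.8 CPM. Eno3, a muscle-type enolase of glycolysis, went up, with 37.4, 52.1, 103 and 178 CPM. Mrc1 and Clec4n, both higher in croton oil than in untreated LCs, were thus not highest in the cells highest in Mgl2.

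Within the LC gate, cells with fewer Epcam UMIs had more Mgl2 in the croton oil library. The level was 704 CPM (684 to 724) in the 663 gated cells with 2 to 4 Epcam UMIs, 468 CPM (458 to 479) in the 1456 with 5 to 9 and 258 CPM (254 to 262) in the 3803 with 10 or more. Median depth was 10001, 11159.5 and 13753 UMIs, and its part in this order was not tested. In untreated cells the levels were 104, 56.6 and 53.2 CPM and in microneedle cells 20.8, 13.1 and 15.7 CPM. Cd207 showed no such order in croton oil cells, at 340, 256 and 346 CPM. MHC class II-high cells with under 2 Epcam UMIs, which the gate left out, had Mgl2 at 706 CPM in the croton oil library (328 cells), 222 CPM in the untreated library (79 cells) and 5.58 CPM in the microneedle library (61 cells, 1 UMI). Their median depth was 9095, 1532 and 1241 UMIs in that order and their Epcam level 63.1, 213 and 206 CPM, so the same UMI limit met cells of unequal depth. The croton oil ones were at 763 CPM (722 to 805) with 1 Epcam UMI and at 625 CPM (580 to 671) with 0, so the order went on to 1 Epcam UMI and did not hold at 0. The untreated ones were at 313 CPM (232 to 414) with 1 and at 38.6 CPM (7.96 to 113, 3 UMIs) with 0.

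**Figure D3:**
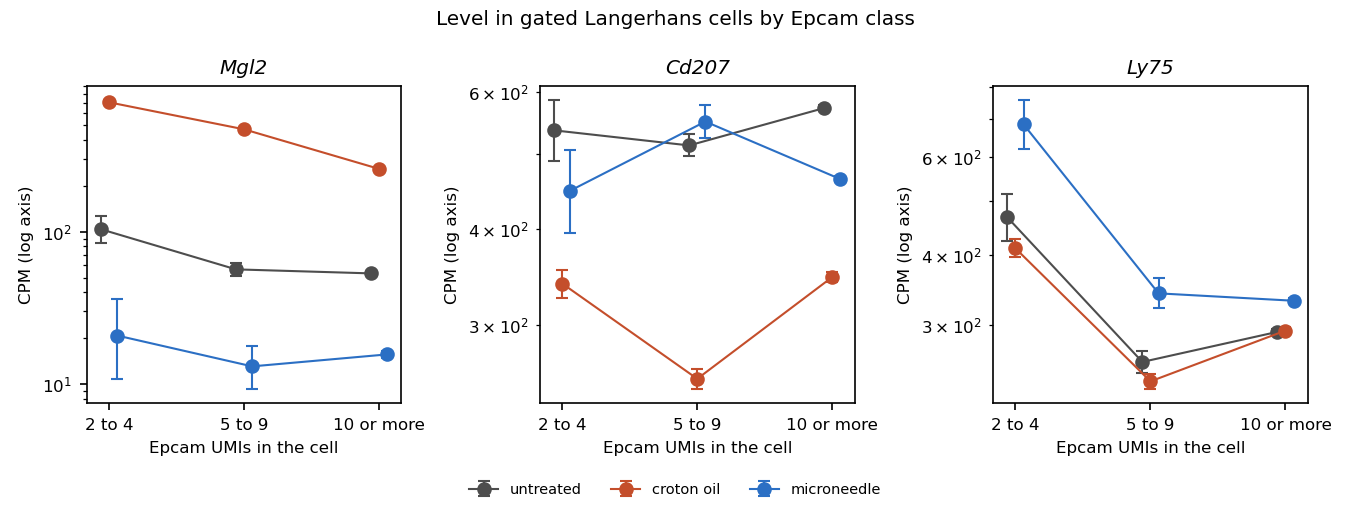
Level (CPM, log axes) of Mgl2, Cd207 and Ly75 in gated LCs by the number of Epcam UMIs in the cell (2 to 4, 5 to 9, 10 or more), by library, with 95% counting intervals. Mgl2 in the croton oil library goes from 704 to 258 CPM with more Epcam, and Cd207 does not follow that order.

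Ly75 was highest in migratory cells, defined by at least 3 UMIs of Ccr7, the receptor that guides dendritic cells to lymph nodes, plus Fscn1, an actin bundler of mature dendritic cells. There were 21 such cells in the untreated, 795 in the croton oil and 178 in the microneedle library when cells inside and outside the LC gate were combined, of which 13, 135 and 25 passed the gate. Their Ly75 level was 1372 CPM (1249.7 to 1504) without treatment, 1636 CPM (1613 to 1659) after croton oil and 1932 CPM (1884 to 1982) after microneedling. In gated cells without the migratory ones it was 289, 268 and 328 CPM. In all 3 libraries Ly75 was thus several times higher in migratory cells, far beyond counting error.

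Cd207, Clec4a2 and, in the treated libraries, Mgl2 and Clec7a did not share that pattern. Cd207 was lower in migratory cells, at 335 (276 to 403), 227 (218 to 235) and 260 (242 to 278) CPM against 569, 319 and 464 CPM in the other gated cells. Mgl2 was at 182 CPM (140 to 234) in the 21 untreated migratory cells and 264 CPM (254 to 273) in the croton oil ones, against 53.8 and 329 CPM, and at 10.3 CPM (7.05 to 14.5) against 15.7 CPM in the microneedle library. Mgl2 thus kept the order croton oil, untreated, microneedle among migratory cells. Clec7a was at 25.4 and 17.4 CPM in croton oil and microneedle migratory cells, below the 56.6 and 46.7 CPM of the others, but at 544 CPM (468 to 629) in the untreated ones. Clec4a2 was at 0.336 CPM (4 UMIs) and 0.966 CPM (3 UMIs) in treated migratory cells, against 15.1 and 19.1 CPM.

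**Figure D4:**
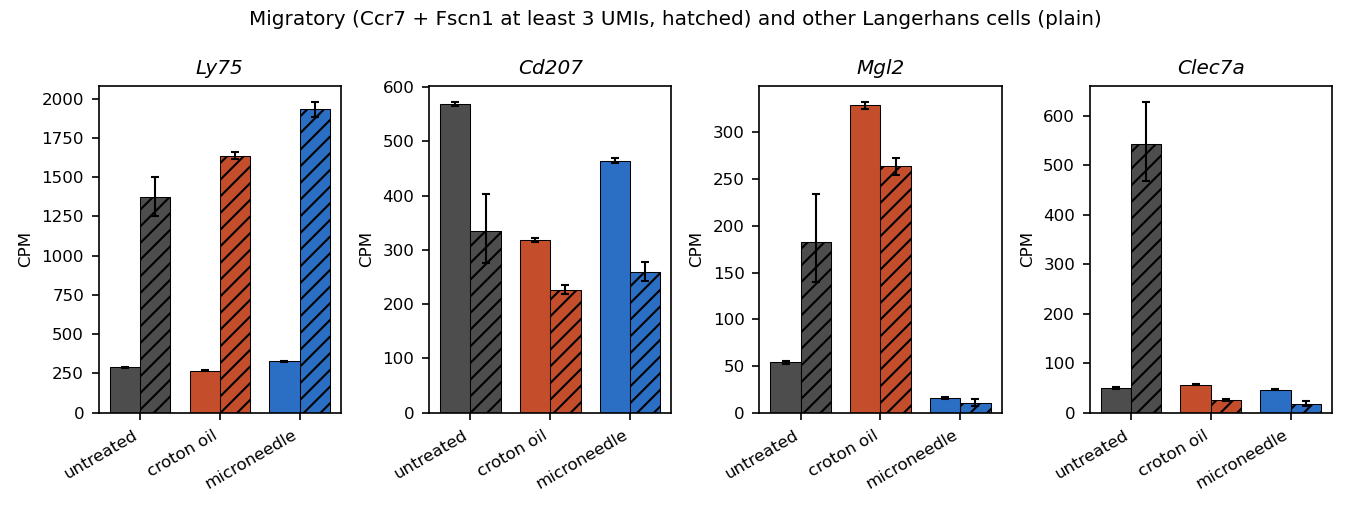
Level (CPM, linear axes from 0) of Ly75, Cd207, Mgl2 and Clec7a in gated LCs that were not migratory (plain bars) and in migratory cells inside and outside the gate (hatched bars) of each library, with 95% counting intervals. Ly75 is at 1372 to 1932 CPM in migratory cells and at 268 to 328 CPM in the others.

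C1q genes, which encode the first component of complement and are highly expressed by macrophages, divided the LCs differently in each library: 6.65% of untreated, 86.4% of croton oil and 64.3% of microneedle LCs were neither migratory nor cycling and held at least 3 UMIs of C1qa, C1qb and C1qc. In the croton oil library Mgl2 was at 334 CPM (329 to 338) in these C1q-positive cells and 203 CPM (190 to 216) in the 327 other cells that were neither migratory nor cycling, and Cd207 at 294 (290 to 298) and 625 CPM (602 to 649). Clec7a was at 48.4 CPM in the former and 210 CPM (197 to 224) in the latter. The other croton oil cells, with fewer than 3 C1q UMIs, were thus higher in Cd207 and Clec7a and lower in Mgl2. The limit was set on unthinned counts, and the part of depth was not tested. In untreated cells the same split gave Mgl2 levels of 56.8 and 53.3 CPM and Cd207 levels of 634 and 558 CPM.

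Clec7a was concentrated in few LCs. The 75 untreated, 90 croton oil and 105 microneedle cells with at least 10 Clec7a UMIs held 40.0%, 27.8% and 34.4% of its UMIs. In the untreated library these cells had Mgl2 at 188 CPM (165 to 213), against 52.2 CPM in the others, Cd207 at 542 CPM (504 to 583), against 569 CPM, and Epcam at 1502 CPM, against 1538 CPM. They also had the monocyte markers Ccr2 at 36.8 CPM, Lyz2 at 66.9 CPM and Fn1 at 21.8 CPM, against 0.338, 15.3 and 0.0376 CPM. Of the same marker list, Cd14 was similar, at 23.3 against 20.7 CPM, and C1qa lower, at 45.1 against 59.5 CPM. The part of these markers in their Clec7a and Mgl2 levels was not tested. In the croton oil library Clec7a-high cells had Cd207 at 931 CPM (887 to 977) against 314 CPM, and Mgl2 at 168 CPM (149 to 188) against 342 CPM. In the microneedle library they had Cd207 at 571 CPM (541 to 601) against 463 CPM and Mgl2 at 23.2 CPM (17.6 to 30.1) against 15.4 CPM. Mgl2 was thus higher in the Clec7a-high cells of the untreated and microneedle libraries and lower in those of the croton oil library, whereas Cd207 was higher in those of both treated libraries.

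In macrophage-like cells the activating and inhibitory receptors and Clec10a were higher than in LCs. Macrophage-like cells, with at least 4 of 13 macrophage markers and no Epcam UMI, numbered 285 in the microneedle library and only 2 and 5 in the untreated and croton oil libraries, so levels are given for the microneedle library alone. The 13 markers chose these cells, so their levels, such as Lyz2 at 1357 CPM, are no check of the name. Of the list's markers outside the 13, Csf1r, the receptor for the growth factor of macrophages, was at 172 CPM (155 to 191) and C1qa at 92.7 CPM (80.3 to 106), the latter below the LC level in that library. Clec4a2 was at 285 CPM (263 to 308), 15.0 times its LC level in that library, and Clec7a at 257 CPM (236 to 279), 5.51 times. Clec12a was at 27.5 CPM (21.0 to 35.4) and Clec10a at 9.17 CPM (5.60 to 14.2), both well above their LC levels though from 60 and 20 UMIs only.

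The lectins most abundant in LCs were low in the same macrophage-like cells. Cd207 was at 10.6 CPM (6.69 to 15.8), 2.26% of the LC level, Ly75 at 18.3 CPM (13.1 to 25.0), 5.50%, and Mgl2 at 0.917 CPM from 2 UMIs. Cd209a had 0 UMIs, which allows up to 1.38 CPM. At 3000 UMIs Clec4a2 was detected in 45.6% of 241 macrophage-like cells, Clec7a in 29.0%, Clec12a in 7.88%, Cd207 and Clec10a in 2.07% each and Mgl2 in 0.415%. The macrophage-like cells of microneedled skin therefore had more Clec4a2 and Clec7a and less Cd207, Ly75 and Mgl2 than the LCs beside them.

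Neutrophil-like cells, 205 in the croton oil and 407 in the microneedle library, had the highest Clec7a of any class of at least 50 cells, at 678 CPM (628 to 731) and 669 CPM (633 to 708). Clec4a2 was at 70.1 and 80.4 CPM in them and Clec12a at 5.92 and 18.8 CPM. The intervals of Clec7a and of Clec4a2 overlapped between the injuries. Mgl2 was at 16.8 CPM (17 UMIs) in croton oil neutrophil-like cells and had 0 UMIs in microneedle ones, which allows up to 1.61 CPM, the same order as in the LCs of these libraries.

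**Figure D5:**
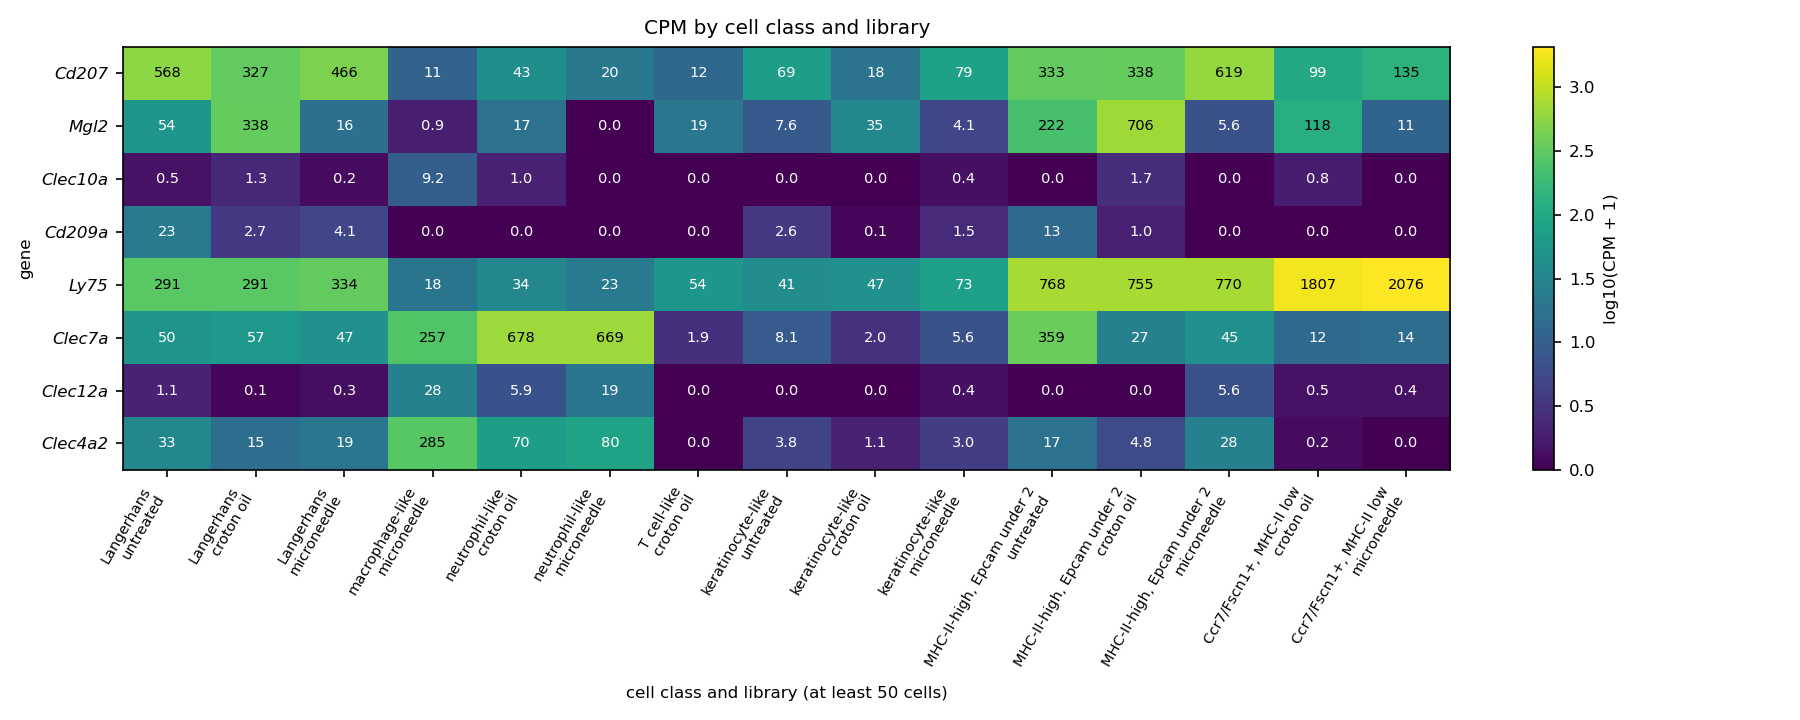
Level (CPM, printed in each cell and coloured by log10(CPM + 1)) of the 8 lectin genes in each named cell class and library with at least 50 cells, unassigned cells not shown. Mgl2 is highest, at 706 CPM, in MHC class II-high cells with under 2 Epcam UMIs of the croton oil library and Ly75 in Ccr7 and Fscn1-positive cells, Clec7a is highest in neutrophil-like cells and Clec4a2 and Clec12a in macrophage-like cells. Cd207 is at 568 CPM in untreated LCs and at 619 CPM, with an interval of 509 to 746, in the MHC class II-high cells with under 2 Epcam UMIs of the microneedle library.

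Over the 15 sums of a cell class in a library with at least 50 cells, the 5 genes most like Cd207 by Pearson correlation of log2(CPM + 5), among 10989 genes, were Abcc4 (0.970), Rtn1 (0.964), Scn3a (0.959), Ninl (0.957) and Stxbp5l (0.945). For Mgl2 they were Gfer (0.779), Eno3 (0.778), Scpep1os (0.774), Arfgap1 (0.764) and Emd (0.758). Cd207 therefore had close companions in this set of sums and Mgl2 had none as close. Sums of 1 library share its depth and free RNA. Of the Mgl2 companions, Eno3 was the one that also differed strongly in LCs, at 3.50 CPM in untreated cells, 77.3 CPM after croton oil and 3.90 CPM after microneedling.

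Other C-type lectin genes were counted from a list of 48, of which 47 were in the files. Of the 12 with at least 20 CPM for croton oil against untreated LCs, 3 were 2-fold higher, where 5.5% of all genes were, and 2 lower, where 5.53% were, with a median log2 difference of 0.41 beside -0.03 for all genes. Of the 10 for microneedle against untreated, 1 was higher, against 3.88% of all genes, and 2 lower, against 1.76%, with a median of -0.15 beside 0.03. Mrc1 was at 0.325 CPM in untreated LCs, 51.7 CPM after croton oil and 1.26 CPM after microneedling, and at 825 CPM in the macrophage-like cells of the microneedle library. Klrb1b, an inhibitory receptor of the natural killer gene family, was at 1.18, 58.8 and 14.0 CPM, and Clec4n at 17.9, 65.5 and 50.01 CPM. The genes at least 2-fold lower after each injury were Cd209d, given above, and Cd69, an early activation marker, at 80.7, 21.9 and 32.8 CPM. Mrc1, Klrb1b and Clec4n, the 3 higher ones for croton oil, were below the minimum in untreated LCs, as was Clec4n, the 1 higher for microneedle. They passed only through the treated library of each comparison, so the minimum fixed their direction and the counts support no more.

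Genes that relay lectin signals were counted in the same way. Of the 23 signalling genes, among 24 listed, that passed the minimum, 0 were 2-fold apart for croton oil against untreated, where 5.5% of all genes were higher and 5.53% lower. For microneedle 0 were lower, against 1.76%, and 1 was higher, a share near the 3.88% of all genes. It was Src, at 13.2 CPM in untreated LCs, 20.3 CPM after croton oil and 40.2 CPM after microneedling, which passed only through the treated libraries. The median log2 differences of the signalling genes were 0.07 and 0.18. Syk, the kinase downstream of dectin-1, was at 69.9, 141 and 108 CPM, the adaptor gene Tyrobp at 547, 1037 and 647 CPM, and Card9, which carries the dectin signal on, at 89.6, 51.6 and 84.6 CPM. Syk and Card9, which act in 1 chain, thus differed in opposite directions in croton oil cells, each by less than 2-fold on the log2(CPM + 5) scale.

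Among 18 uptake receptors of other families, 8 passed the minimum for croton oil against untreated LCs, 4 of them were 2-fold higher, against 5.5% of all genes, and 1 lower, against 5.53%, and the median log2 difference was 0.80. For microneedle, 2 of 7 were higher, against 3.88%, and 0 lower, against 1.76%, with a median of -0.09. Cd14, a receptor for bacterial lipopolysaccharide, was at 20.7 CPM in untreated LCs, 112 CPM after croton oil and 69.0 CPM after microneedling. Lrp1, a scavenger receptor of the LDL receptor family that passed only through the treated libraries, was at 18.2, 66.0 and 65.9 CPM, the inhibitory Fc receptor gene Fcgr2b at 79.5, 241 and 157 CPM, and Fcgr3 at 32.0, 72.3 and 25.9 CPM. Tfrc, the transferrin receptor, was the lower one, at 97.5, 39.1 and 46.4 CPM. Croton oil LCs thus had higher levels of several receptors of other families beside a higher Mgl2 and a lower Cd207, Cd209a and Clec4a2.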

How the data were processed

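The deposited values were whole-number UMI counts per gene and cell, not normalized, written by the authors with Cell Ranger (version 8.0 and genome build GRCm39 per the submitters' processing notes) from Chromium 3' libraries, per the labels. Of 34289 feature identifiers, 33767 occur in GENCODE M39. A 3' assay reads transcript ends, and droplets also take up free RNA.

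Filtering retained cells with 500 or more genes and at most 10% mitochondrial UMIs. Scrublet (scanpy 1.11.5) marked 1, 0 and 0 cells by its automatic threshold, so the highest-scoring cells were removed at 0.8% per 1000 cells, 773, 532 and 376 of them, which left 9054 untreated, 7626 croton oil and 6479 microneedle cells. LCs were gated as described. Of the remaining cells, keratinocyte-like ones had at least 2% of UMIs from 8 markers, neutrophil-like ones at least 1% from 6 markers and T cell-like ones at least 5 marker UMIs, each with under 2% MHC class II. The macrophage-like rule was set after the data were seen. UMIs were summed per class and library and expressed as CPM, and differences are log2 of (CPM + 5). Named genes were the 8 lectins, genes of 3 lists with at least 20 CPM in LCs of any library, the 5 genes most like Cd207 and Mgl2, and genes moved oppositely by at least 2-fold. The lectin set, lists and gates were chosen with earlier results of these data known. Summing and fold computation were checked on simulated data. Alternatives covered the gates, doublets, pseudocount, minimum level, thinning depth and scaling, with TMM factors from edgeR 4.0.16 (R 4.3.3), and 4 were added after seeing the data. Promoters were taken from RefSeq (table build GRCm38.p6) and placed by exact match in GRCm39. Computation used Python 3.11.15, numpy 2.4.6, scipy 1.17.1, pandas 2.3.3 and matplotlib 3.10.9.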

Additional observations from a re-analysis of the deposited data

Results flagged for a closer look

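Mgl2 differed from untreated LCs in opposite directions in the 2 injuries, by 2.54 on the log2(CPM + 5) scale after croton oil and by -1.51 after microneedling. Each side rests on 1 library and both use the same untreated library, and the difference between the injuries was not tested.

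Cells with at least 2% MHC class II UMIs but under 2 Epcam UMIs lay outside the LC gate, on which the comparisons between libraries rest. In the croton oil library 328 such cells had Mgl2 at 706 CPM (676 to 738), against 222 CPM (166 to 291) in the 79 untreated ones, each pooled over cells with 0 and with 1 Epcam UMI. Their median depth was 9095 and 1532 UMIs and their Epcam level 63.1 and 213 CPM, so the limit of 2 Epcam UMIs met cells of unequal depth in the 2 libraries. Their LC marker Cdh1 was at 65.5 CPM in the croton oil library and 209 CPM in the untreated one, and their Ccr7 at 434 and 371 CPM. Mfge8, another LC marker, differed from Cdh1 in direction, at 2047 and 973 CPM. C1qa was at 1189 CPM in the croton oil ones and 17.1 CPM (4 UMIs) in the untreated ones. Of the monocyte markers, Lyz2 and Fn1 had 0 UMIs in the croton oil ones, which allows up to 1.03 CPM, and stood at 81.1 CPM (19 UMIs) and 12.8 CPM (3 UMIs) in the untreated ones. Ccr2 had 0 UMIs in both, which allows up to 1.03 and 12.8 CPM. Cd14, of the same marker list, was higher in the croton oil ones, at 81.0 CPM against 12.8 CPM (3 UMIs) in the untreated ones. The part of depth and of these markers in the Mgl2 levels was not tested.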

How the results depend on the processing

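No paired analysis was possible because each group had 1 library, whose replicate number is only a name, and no library could be left out for the same reason. No lectin that was 2-fold apart changed direction under the alternatives run, and Ly75 took either sign, as given above. For Mgl2, croton oil minus untreated was 2.41 with at least 5 Epcam UMIs, 2.42 with at least 4% MHC class II, 2.46 with migratory cells from outside the gate, 2.63 with a pseudocount of 1 CPM and 2.65 with TMM scaling, and microneedle minus untreated was -1.61 with at least 4% MHC class II and -1.72 with a pseudocount of 1 CPM. For Cd207, croton oil minus untreated was -0.76 with at least 4% MHC class II and also without possible mixed droplets, -0.82 without doublet removal, -0.83 without migratory cells and also when the total omitted mitochondrial and ribosomal genes, -0.88 with migratory cells from outside the gate and -0.68 with TMM scaling. Microneedle minus untreated was -0.31 for Cd207 with those migratory cells and also with TMM scaling, and -0.33 with the reduced total. With at least 50 CPM, 228, 67 and 45 genes were 2-fold lower for croton oil against untreated, microneedle against untreated and croton oil against microneedle, in place of 378, 118 and 69. The share of LCs with both Mgl2 and Cd207 was 23.2%, 36.8% and 7.03% at 6000 UMIs and 39.7%, 56.4% and 18.7% without thinning in untreated, croton oil and microneedle cells, and 20.1% in croton oil cells with at least 5 Epcam UMIs; a deeper cell shows more transcripts by construction, and for the other settings the cause was not tested. TMM scaling moved the median log2 difference of all genes by 0.11 for croton oil minus untreated and 0.13 for croton oil minus microneedle, and genes 2-fold higher or lower went from 376 and 378 to 482 and 287, and from 108 and 69 to 135 and 46. Of the lectins' log2 differences over all alternatives, 253 stayed within their counting interval and 59 did not. Clec10a and Clec12a in LCs, and the lectins in 2 untreated and 5 croton oil macrophage-like cells, were limited by depth.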
